A study of Mus musculus with 32 samples.

Results

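The 33 genes described here encode mainly the enzymes that make fatty acids and assemble them into triglycerides. With them are Srebf1, which encodes the transcription factor SREBP-1, Thrsp, a small protein that promotes lipogenesis, and Pnpla3, a lipid droplet acylhydrolase and transacylase. They were chosen by symbol as genes of this pathway, with no measured value in the rule but with earlier results of these data known. Each symbol matched 1 of the 47643 Ensembl genes in the count table. RNA came from epididymal white adipose tissue (eWAT) and liver of male C57BL/6 mice aged 10 weeks, of the C57BL/6J substrain by the methods. For 7 days the mice received corticosterone (Cort), the main glucocorticoid of mice, or ethanol vehicle (Veh) in their drinking water, and ate a normal-protein diet (NPD, 20% of kcal as protein) or a high-protein diet (HPD, 60% of kcal as protein). Both diets held whey protein and the same amounts of fat and sucrose, and starch gave way to protein in the HPD. Crossing drink with diet gave 4 groups per tissue, named by both (Veh NPD and so on), with 4 libraries each. Cort reached the whole animal, so its action in a tissue cannot be told apart from its action elsewhere in the body, and a change of diet was a change of protein and starch together.

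Cytosolic acetyl-CoA, made from exported citrate or from acetate, is carboxylated to malonyl-CoA, which fatty acid synthase joins into palmitate with NADPH. Elongases and desaturases then lengthen the chain and add double bonds, and acyl-CoA synthetases activate fatty acids for use. Acyltransferases, lipins and diacylglycerol acyltransferases attach them to a glycerol backbone, and SREBP-1, which responds to insulin, drives transcription of many of these enzymes in fat and liver.

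The libraries (QuantSeq) take their reads next to the poly(A) tail, so a count does not grow with the length of the gene, and the 32 libraries held between 8933307 and 18057936 counts. Levels are given as CPM, which is the count as a share of the library total with TMM scaling factors, with the standard deviation (SD) between mice. Changes are log2 fold changes with their standard error (SE), and a gene was called where the Benjamini-Hochberg adjusted p of edgeR's quasi-likelihood test was under 0.05 over all genes tested, which were 15187 in eWAT and 12391 in liver. Liver Veh HPD replicate 4 was left out of means and tests, so that group had 3 libraries and the others 4. The study removed the same library as an outlier. Defining markers fitted the labelled tissues: Adipoq ranged from 3680 to 10100 CPM in eWAT and from 0.233 to 3.48 CPM in liver, and Alb from 33600 to 202000 CPM in liver and from 31.4 to 84.2 CPM in eWAT. Markers of epididymis and testis summed to 13100 CPM in eWAT Cort HPD replicate 4, those of muscle to 407 CPM in 1 liver Cort NPD library (replicate 3), and those of red blood cells to between 12700 and 25900 CPM in eWAT Cort HPD against 3620 to 6490 CPM in eWAT Cort NPD. P-values rest on the spread between mice within groups, estimated over all groups of a fit together and moderated across genes. In bulk tissue, fewer cells of a type and less RNA per cell cannot be told apart.

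The members together took a larger share of the eWAT than of the liver counts, and in eWAT that share was lower on the HPD under both treatments. It was 2.46% to 2.80% in Veh NPD and 1.70% to 2.08% in Veh HPD, and the libraries of these groups did not overlap. Under Cort it was 2.67% to 3.64% on the NPD and 1.25% to 2.11% on the HPD, again without overlap. Scd1, the delta-9 desaturase that makes oleate, held much of this: 1.41% to 1.69% in Veh NPD but 0.444% to 1.06% in Cort HPD. In liver the members held 0.458% to 0.745% in Veh NPD, 0.680% to 1.10% in Veh HPD, 0.466% to 0.958% in Cort NPD and 0.268% to 0.515% in Cort HPD. Without Scd1 the other members held 0.812% to 1.27% in eWAT Veh NPD and 0.544% to 1.18% in Veh HPD, which overlapped, and 1.39% to 1.86% in Cort NPD and 0.801% to 1.06% in Cort HPD, which did not. These shares are a description without a test, and they weigh each gene by its abundance. The sum of 7 adipocyte markers was 28000 to 34700 CPM in eWAT Cort HPD and 29300 to 36800 CPM in eWAT Cort NPD. Fabp4 made up the largest part of it, at 14400 to 21100 CPM over the eWAT libraries. Lep ranged there from 371 to 2960 CPM and Adipoq from 3680 to 10100 CPM. Single markers by group are not given here, so the sum does not show that each of them kept its level.

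**Figure D1:**
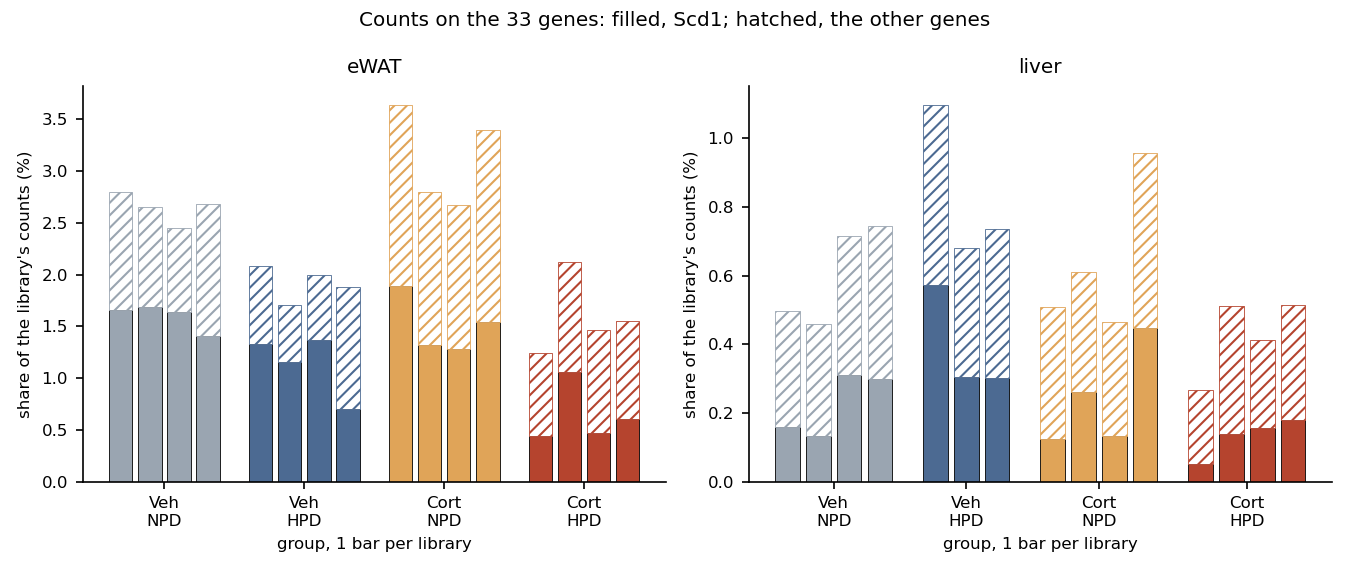
Share of each library's counts that fell on the 33 genes (percent, 1 bar per library, groups along the axis), split into Scd1 (filled) and the other genes (hatched), for eWAT and liver, without the liver library that was left out. In eWAT all HPD bars of a treatment are shorter than its NPD bars, with a lowest share of 1.25% in Cort HPD.

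In eWAT under Cort, the glycerolipid assembly genes Agpat2 and Dgat2, the lipid droplet enzyme gene Pnpla3 and the elongase gene Elovl1 were higher on both diets. On the NPD, 5 of the 32 members tested were higher under Cort and 1 was lower, where 4.05% of all tested genes were higher and 3.93% lower. On the HPD, 4 were higher and 1 lower, against 3.46% and 2.63% of all genes. The 4 genes Agpat2, Dgat2, Elovl1 and Pnpla3 were higher and Elovl5 was lower on both diets, and Thrsp was higher on the NPD alone in that fit, and the interaction of diet and Cort was not called for it. The median log2 fold change of the members was 0.18 on the NPD and 0.09 on the HPD, against -0.02 and -0.002 over all genes, and 75% and 62.5% of the members had a positive sign, against 47.5% and 49.7% of all genes. Elovl2 was removed by the filter on low counts in eWAT. Markers of other cell types moved along these comparisons. Leukocyte markers summed to 251 to 284 CPM in Veh NPD and 175 to 216 CPM in Cort NPD, and muscle markers to 60.7 to 197 CPM and 10.3 to 23.8 CPM in the same groups. The muscle sum rested largely on Acta1, at 8.99 to 197 CPM over the eWAT libraries. The medians of Ckm, Myh4 and Tnnt3 there were 0, 0.0324 and 0.291 CPM, so the sum does not show muscle tissue. Red blood cell markers summed to 5250 to 9270 CPM in Veh HPD and 12700 to 25900 CPM in Cort HPD. The part of these markers in the results was not tested.

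Pnpla3 (chromosome 15, 84167837 to 84187236, + strand, GRCm38), which encodes a lipid droplet acylhydrolase and transacylase, had the smallest p of the members in eWAT. Its level was 87.1, 86.2, 117 and 120.5 CPM in the 4 Veh NPD libraries and 169, 172, 173 and 216 CPM in Cort NPD. On the HPD it was 94.6, 54.1, 48.8 and 42.0 CPM with Veh and 139, 202, 191 and 139 CPM with Cort. Every Cort library was above every Veh library on both diets, and the means were 2.81 times apart on the HPD. On the NPD it was higher by 0.83 on the log2 scale (SE 0.21, adjusted p = 0.016), and on the HPD by 1.49 (SE 0.21, adjusted p = 0.00017). The NPD call was lost without Cort NPD replicate 4 (0.74, adjusted p = 0.055), Veh NPD replicate 1 (0.76, adjusted p = 0.058) or Veh NPD replicate 2 (0.76, adjusted p = 0.059), and with library totals in place of TMM factors (0.74, adjusted p = 0.053).

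Dgat2 (chromosome 7, 99153658 to 99182719, - strand), a diacylglycerol acyltransferase that forms triglyceride, stood at 1185, 921, 1240.0 and 1905 CPM in Veh NPD and at 2099, 2189.7, 1731 and 2626 CPM in Cort NPD. On the HPD it stood at 837, 544, 951 and 738 CPM with Veh and at 1575, 1739, 1586 and 1390.2 CPM with Cort. The groups were fully apart on the HPD, and on the NPD the highest Veh library, replicate 4, reached above the lowest Cort library. It was higher under Cort by 1.03 on the log2 scale (SE 0.19, adjusted p = 0.0014) with the HPD and by 0.72 (SE 0.19, adjusted p = 0.018) with the NPD. Leaving out a single library ended the NPD call in 5 of 16 cases, namely Cort NPD replicate 4, Veh HPD replicate 4 and Veh NPD replicates 1, 2 and 3 (0.58 to 0.72, adjusted p 0.057 to 0.071), and with library totals (0.63, adjusted p = 0.052) or without the filter (0.72, adjusted p = 0.066).

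Agpat2 (chromosome 2, 26593057 to 26604417, - strand), which makes phosphatidic acid and is the main enzyme of its kind in fat, had a mean of 467 CPM (SD 101, n = 4) in Veh NPD and 806 CPM (SD 91.5, n = 4) in Cort NPD, and of 353 CPM (SD 117, n = 4) and 559 CPM (SD 45.7, n = 4) on the HPD. All Cort libraries lay above the Veh libraries of the same diet. The log2 fold change was 0.79 (adjusted p = 0.0087) on the NPD and 0.66 (adjusted p = 0.033) on the HPD. The HPD call was lost in 6 of 16 fits with 1 library left out, those without Cort HPD replicates 2, 3 and 4 and Veh HPD replicates 1, 2 and 3 (0.49 to 0.72, adjusted p 0.055 to 0.11), and also without the filter (adjusted p = 0.073) or with the compared groups alone (adjusted p = 0.072). Agpat2 overlaps Egfl7 on the opposite strand, Agpat1 Egfl8, Elovl1 Cdc20, Srebf1 Rai1, Acss2 Gss, Acaca Gm11437 and the sparsely counted Gpat3 4930458D05Rik. In the same way Acsl5 overlaps Zdhhc6, Elovl6 Gm35986 and Me1 A330041J22Rik, and some other members also overlap a gene. Whether the counting used the strand is not given in the sources used here.

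Of the elongases, Elovl1 was higher and Elovl5 lower. Elovl1 (chromosome 4, 118428093 to 118432953, + strand), which extends saturated chains to very long lengths, stood at 27.2, 30.5, 28.6 and 34.8 CPM in Veh NPD and at 55.1, 48.6, 48.1 and 57.7 CPM in Cort NPD. On the HPD it stood at 24.6, 32.6, 31.1 and 21.1 CPM with Veh and at 42.0, 40.4, 44.6 and 35.7 CPM with Cort. The Cort libraries were above the Veh libraries on each diet, with a log2 difference of 0.79 (SE 0.15, adjusted p = 0.00089) for the NPD and of 0.57 (SE 0.15, adjusted p = 0.019) for the HPD. The HPD call was lost without Cort HPD replicate 1 (adjusted p = 0.053) or 3 (adjusted p = 0.068), or Veh HPD replicate 4 (0.46, adjusted p = 0.052) or 1 (adjusted p = 0.074), and with the compared groups alone (adjusted p = 0.075). Elovl5, which lengthens polyunsaturated chains, fell by 0.53 on the log2 scale (adjusted p = 0.015) from a mean of 98.2 CPM (SD 6.73, n = 4) on the NPD and by 0.59 (adjusted p = 0.0087) from 74.2 CPM (SD 13.8, n = 4) on the HPD, without overlap on either diet. Its NPD call was lost without Cort NPD replicate 3 (-0.45, adjusted p = 0.072) and its HPD call without Veh HPD replicate 1 (-0.48, adjusted p = 0.055).

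Thrsp, which lies in the lipogenic programme through its effect on acetyl-CoA carboxylase, was at 1803, 1209, 929.9 and 1933 CPM in Veh NPD and at 3796, 3133, 3728 and 3995 CPM in Cort NPD. The groups did not overlap, and the log2 fold change was 1.32 (SE 0.30, adjusted p = 0.015), which was not called without Veh NPD replicate 2 (1.24, adjusted p = 0.054). On the HPD the Veh libraries ranged from 769 to 2365 CPM and the Cort libraries from 1628 to 2307 CPM, with a log2 fold change of 0.56 that was called only without Veh HPD replicate 4 (0.94, adjusted p = 0.034). Of the members that supply carbon, NADPH and palmitate, edgeR called only Thrsp for Cort in eWAT, and some others were called on the NPD by alternatives. Fasn, the fatty acid synthase, had a log2 fold change of 0.59 and Acaca, the acetyl-CoA carboxylase of lipogenic tissue, of 0.61 on the NPD, where the Cort and Veh libraries of each did not overlap, and on the HPD these were 0.26 and 0.04. With the compared groups alone, Fasn (adjusted p = 0.0073) and Acaca (adjusted p = 0.017) were called on the NPD. For Me1, the malic enzyme, the NPD value was 0.81 (adjusted p = 0.083), and it was called by limma voom (adjusted p = 0.020), with the compared groups alone (adjusted p = 0.0013) and with Veh HPD replicate 2 (adjusted p = 0.024) or 4 (adjusted p = 0.015) left out. Acacb, given further on, was called by DESeq2 and limma voom.

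**Figure D2:**
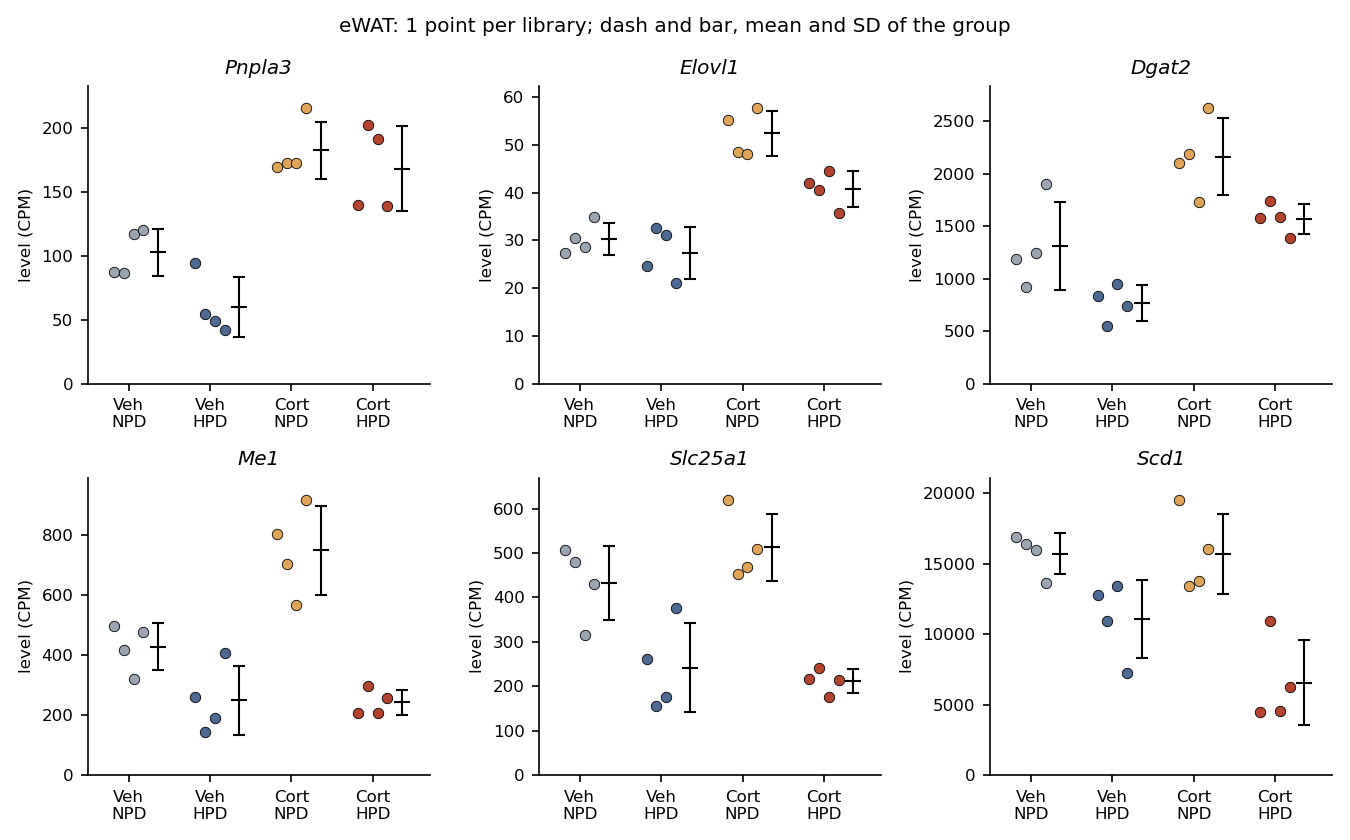
Levels in CPM of 6 members in the 16 eWAT libraries (1 point per library, vertical axis from 0, groups along the horizontal axis, dash and bar for the mean and SD of 4 mice). Pnpla3, Elovl1 and Dgat2 lie higher in the Cort than in the Veh groups, while Me1, Slc25a1 and Scd1 lie lower in Cort HPD than in Cort NPD.

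In eWAT of Cort-treated mice, the HPD groups held less transcript of the citrate carrier, malic enzyme and Scd1. There 3 members, Me1, Slc25a1 and Scd1, were lower on the HPD and 0 were higher, against 0.283% and 0.204% of all tested genes. At an unadjusted p under 0.05 there were 17 of 32 members, against 1490 of all 15187 genes tested. DESeq2 called 6 members, limma voom 7, and the fit of the compared groups alone 8, and their calls over all genes are not given here. The median log2 fold change of the members was -0.40 against 0.02 over all genes, and 75% of the members were negative against 47.3% of all genes. The count of 3 fell to 0 without Cort HPD replicate 3, Cort HPD replicate 4 or Cort NPD replicate 1, and reached 5 without Veh HPD replicate 4. The red blood cell and brown adipocyte markers moved along the same comparison, the latter from 10.5 to 13.9 CPM in Cort NPD to between 4.28 and 6.32 CPM in Cort HPD with Ucp1 at a median of 0 CPM over the eWAT libraries, and their part in the result was not tested.

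Me1 (chromosome 9, 86581371 to 86695953, - strand), the malic enzyme that yields NADPH, stood at 806, 703, 569 and 919 CPM in Cort NPD and at 208, 296, 208 and 257 CPM in Cort HPD. Every HPD library was well below every NPD library, by a log2 change of -1.63 (SE 0.27, adjusted p = 0.013). With Veh the levels were 497, 416, 321 and 478 CPM on the NPD and 259.6, 143, 189 and 406 CPM on the HPD, and these overlapped through Veh HPD replicate 4. The call was lost without Cort HPD replicate 3 (-1.56, adjusted p = 0.067), Cort HPD replicate 4 (-1.66, adjusted p = 0.056) or Cort NPD replicate 1 (-1.59, adjusted p = 0.057).

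Slc25a1 (chromosome 16, 17925223 to 17928219, - strand), the carrier that exports citrate from mitochondria, stood at 620.3, 453, 468 and 508 CPM in Cort NPD and at 217, 241, 177 and 213 CPM in Cort HPD. The groups were again fully apart, by a log2 change of -1.27 (SE 0.23, adjusted p = 0.014). With Veh it was at 506, 479, 316 and 429 CPM on the NPD and at 262, 154, 175 and 375 CPM on the HPD, with an overlap from Veh HPD replicate 4 and a log2 fold change of -0.84 that was called only without that library (-1.14, adjusted p = 0.012). Under Cort the call was lost without Cort HPD replicate 3 (-1.19, adjusted p = 0.067), Cort HPD replicate 4 (-1.27, adjusted p = 0.069), Cort NPD replicate 1 (-1.17, adjusted p = 0.066) or the filter (-1.27, adjusted p = 0.053).

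Scd1 (chromosome 19, 44394455 to 44407879, - strand) was the most abundant member, at 19547, 13408, 13758 and 16023 CPM in Cort NPD and 4496, 10899, 4575 and 6246 CPM in Cort HPD. The groups did not overlap, and Cort HPD replicate 2 stood above the other 3 libraries of its group. For Cort on the HPD the log2 fold change was -0.76 (adjusted p = 0.099), and -1.12 (adjusted p = 0.00045) without that library. With Veh it was at 16888, 16397, 15945 and 13609 CPM on the NPD and 12781, 10924, 13397 and 7264 CPM on the HPD, also without overlap. The log2 fold change under Cort was -1.26 (SE 0.26, adjusted p = 0.041), and the call was lost in 14 of 16 fits that left out 1 library, and held only without Cort HPD replicate 2 or Veh HPD replicate 4, while the fold change stayed between -1.12 and -1.33 in the fits that lost it (adjusted p 0.059 to 0.14). It was also lost with library totals (-1.22, adjusted p = 0.066), without the filter (-1.26, adjusted p = 0.11) and with the compared groups alone (-1.26, adjusted p = 0.23). The Scd genes are close paralogues, and how reads that match several genes were counted is not given in the sources used here.

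Other members of the same steps had large fold changes that edgeR did not call and some alternatives did. Acss2, which makes acetyl-CoA from acetate, was at 311, 209.9, 191 and 292 CPM in Cort NPD and 54.8, 97.2, 51.3 and 59.3 CPM in Cort HPD, a log2 change of -1.94 (SE 0.38, adjusted p = 0.051). The groups did not overlap, and the gene was called in 10 of the alternatives, among them DESeq2 (adjusted p = 9.6e-05) and limma voom (adjusted p = 0.00043). Acly, the ATP citrate lyase, had a log2 fold change of -1.77 (adjusted p = 0.27) with libraries of 671 to 1447 CPM in Cort NPD and 173 to 396 CPM in Cort HPD. Limma voom called Acly (adjusted p = 0.030). Fasn had a log2 fold change of -0.94 (adjusted p = 0.40), and was called with the compared groups alone (adjusted p = 0.043). Acaca had one of -1.07 (adjusted p = 0.20), and was called by limma voom (adjusted p = 0.031), with the compared groups alone (adjusted p = 6e-05) and with Veh HPD replicate 4 left out (adjusted p = 0.0090). Scd2 had one of -1.39 (adjusted p = 0.16), and was called by DESeq2 (adjusted p = 0.010) and limma voom (adjusted p = 0.014). The compared groups alone also called Acacb, Agpat2 and Thrsp, and DESeq2 called Acacb. For Elovl6, which extends palmitate to stearate, it was -1.38 (adjusted p = 0.46). Elovl6 was highest in Cort HPD replicate 4, at 86.4 CPM against 18.7 to 29.8 CPM in the other 3 libraries, and its log2 fold change was -2.15 without that library, which also held the epididymal markers. Srebf1 itself differed little, from 61.9 CPM (SD 13.8, n = 4) in Cort NPD to 51.8 CPM (SD 9.67, n = 4) in Cort HPD.

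In Veh-treated mice, 0 of the 32 members were called for the HPD in eWAT in either direction by edgeR, against 0.0132% of all genes higher and 0.0461% lower. At an unadjusted p under 0.05 there were 12 of 32 members, against 1219 of all 15187 genes tested. DESeq2 called 3 members (Dgat2, Pnpla3 and Scd2) and limma voom 1 (Scd2), and their calls over all genes are not given here. The median log2 fold change was -0.34 against -0.003 over all genes, and 75% of the members were negative against 50.4% of all genes. Veh HPD replicate 4 stood apart from its group: it was the highest of the 4 libraries for 17 of 31 members with enough counts, with Fasn at 3974 CPM against 968 to 1865 CPM and Acly at 819 CPM against 139.6 to 290.2 CPM, and the lowest for Scd1. Without it, the log2 fold change of Fasn went from -0.61 to -1.18 (adjusted p = 0.11). For the interaction term, 0 members were called, against 0.00658% of all genes in each direction, and 0 were called by DESeq2 or limma voom. At an unadjusted p under 0.05 there were 4 of 32 members, against 784 of all 15187 genes tested.

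The promoters of Slc25a1 and Me1, which were lower together in eWAT of the HPD group, and of Elovl2, the member with the smallest p in liver, are shown as examples, and other members had smaller p in eWAT. Each is the 250 bases before a transcription start in RefSeq on GRCm38.p6, written along the strand of the gene towards the start, and capitals mark any of 5 motifs searched on both strands.
Slc25a1 promoter, chr16:17928220-17928469, - strand: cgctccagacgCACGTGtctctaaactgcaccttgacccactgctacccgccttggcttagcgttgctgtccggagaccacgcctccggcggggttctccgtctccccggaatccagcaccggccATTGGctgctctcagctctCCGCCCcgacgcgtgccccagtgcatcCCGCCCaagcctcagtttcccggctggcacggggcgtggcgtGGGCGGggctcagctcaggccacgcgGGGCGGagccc
Me1 promoter, chr9:86695915-86696164, - strand: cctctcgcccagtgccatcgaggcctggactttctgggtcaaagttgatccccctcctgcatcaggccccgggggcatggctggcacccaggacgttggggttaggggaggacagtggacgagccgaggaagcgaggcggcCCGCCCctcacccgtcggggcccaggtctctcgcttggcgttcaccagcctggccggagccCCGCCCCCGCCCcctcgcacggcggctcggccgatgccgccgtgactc
Elovl2 promoter, chr13:41220404-41220653, - strand: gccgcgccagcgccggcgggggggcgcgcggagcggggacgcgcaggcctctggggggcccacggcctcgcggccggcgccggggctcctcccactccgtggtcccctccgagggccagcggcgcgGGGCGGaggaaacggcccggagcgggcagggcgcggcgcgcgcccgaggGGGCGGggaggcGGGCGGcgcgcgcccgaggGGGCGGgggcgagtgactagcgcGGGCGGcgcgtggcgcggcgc
In Slc25a1 the capitals mark an E-box, a CCAAT box read on the other strand and 4 GC boxes. In Me1 they mark 3 GC boxes and in Elovl2 5 GC boxes. Me1 and Elovl2 each have another start in the table, and the window before it held a CCAAT box and no GC box for Me1 and none of the motifs for Elovl2. Of the members, 27 had a promoter in the table, 37 promoters in all. The GC box, GGGCGG, was in 56.8% of the member promoters and in 32.7% of all 32851 promoters, CCAAT in 43.2% and 33.8%, the E-box CACGTG in 8.11% and 6.02%, the glucocorticoid receptor hexamer AGAACA in 13.5% and 16.1%, and the sterol element core TCACNCCAC in 0 member promoters and 1.05% of all. These matches are descriptions of letters in a short window.

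In liver under Cort, genes of polyunsaturated fatty acid synthesis (Elovl2, Fads1, Fads2 and Elovl5) were lower and several glycerolipid acyltransferases (Agpat1, Agpat2, Agpat3, Gpat3 and Dgat2) were higher, each on at least 1 diet. On the NPD, 5 of 33 members were higher and 3 lower under Cort, against 6.84% and 5.79% of all tested genes. On the HPD, 2 were higher and 4 lower, against 4.75% and 5.14%. Elovl2 was lower and Agpat3 higher on both diets. The median log2 fold change of the members was 0.22 on the NPD and -0.08 on the HPD, against -0.005 and -0.004 over all genes, with 66.7% and 45.5% of the members positive against 49.6% and 49.5% of all genes. For the interaction term 0 members were called by edgeR or limma voom, against 0.0565% of all genes in each direction by edgeR. At an unadjusted p under 0.05 there were 5 of 33 members, against 1496 of all 12391 genes tested. DESeq2 called 1 member, Agpat1 (-1.32, adjusted p = 0.023), and its calls over all genes are not given here. Hepatocyte markers summed to 83800 to 119000 CPM in Veh NPD, 110000 to 129000 CPM in Cort NPD, 74400 to 85700 CPM in Veh HPD and 148000 to 260000 CPM in Cort HPD. Red blood cell markers summed to 1390 to 2930 CPM, 1360 to 3540 CPM, 1910 to 3470 CPM and 5270 to 7620 CPM in the same order, leukocyte markers to 18.8 to 35.0 CPM in the Cort groups and 42.0 to 73.3 CPM in the Veh groups, and their part in the results was not tested. The hepatocyte sum of 260000 CPM belonged to Cort HPD replicate 1, against 148000 to 180000 CPM in the rest of its group. Replicate 1 had a TMM factor of 0.754 and was the lowest library of its group for 17 of 32 members with enough counts.

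Elovl2 (chromosome 13, 41182381 to 41220405, - strand), which elongates polyunsaturated chains towards docosahexaenoate, stood at 552, 445, 734 and 701 CPM in Veh NPD and 152, 146, 167 and 195 CPM in Cort NPD. On the HPD it stood at 814, 620.2 and 771 CPM with Veh and 122, 155, 221 and 199 CPM with Cort. All Cort libraries were below all Veh libraries. It fell by 1.88 on the log2 scale with the NPD (SE 0.19, adjusted p = 7.6e-07) and by 2.08 with the HPD (SE 0.20, adjusted p = 5.6e-07), and both calls held in all 15 fits that left out 1 library. Liver Veh HPD replicate 4, left out of the fit, was at 359 CPM, above the Cort libraries. In eWAT, Elovl2 had 0 counts in Veh NPD and at most 2.06 CPM, in Cort HPD replicate 4.

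The delta-5 and delta-6 desaturases of the same pathway, Fads1 and Fads2, were each called on 1 diet. Fads1 (chromosome 19, 10182888 to 10196877, + strand) stood at 346, 268 and 317 CPM in Veh HPD and 91.0, 134, 139 and 145 CPM in Cort HPD, and at 167, 159.9, 277 and 244 CPM in Veh NPD and 146, 133, 109.9 and 203 CPM in Cort NPD. The HPD groups were fully apart and the NPD groups overlapped. The log2 fold change was -1.28 (SE 0.22, adjusted p = 0.00055) on the HPD, held in all 15 fits with 1 library left out, and -0.52 (adjusted p = 0.099) on the NPD, where it was called without Cort NPD replicate 4 (-0.72, adjusted p = 0.028). Fads2 was far less abundant, at 13.8 CPM (SD 5.78, n = 4) in Veh NPD and 5.97 CPM (SD 2.42, n = 4) in Cort NPD, with a log2 fold change of -1.21 (adjusted p = 0.043). That call was lost in 9 of 15 fits, those without Cort HPD replicate 3, Cort NPD replicates 1, 2 and 3, Veh HPD replicates 1, 2 and 3 and Veh NPD replicates 3 and 4 (adjusted p 0.052 to 0.11), with library totals (adjusted p = 0.051) and without the filter (adjusted p = 0.13). On the HPD it was -1.13 (adjusted p = 0.077), from 19.5 CPM (SD 0.893, n = 3) to 8.92 CPM (SD 4.09, n = 4), without overlap.

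Elovl5 was lower under Cort in liver as in eWAT. Its log2 fold change was -1.39 (adjusted p = 0.027) on the HPD, where the Veh libraries were at 835, 490.3 and 418 CPM and the Cort libraries at 169, 244, 174 and 298 CPM, and -0.65 on the NPD, which was not called. The HPD call was lost without Cort HPD replicates 1 (adjusted p = 0.086), 2 (adjusted p = 0.052) or 3 (adjusted p = 0.069), Veh HPD replicate 1 (-1.04, adjusted p = 0.13) or the filter (adjusted p = 0.078). Srebf1 (chromosome 11, 60199089 to 60222581, - strand) was at 20.3, 17.7, 23.5 and 43.0 CPM in Veh NPD and 13.5, 6.21, 10.2 and 13.7 CPM in Cort NPD. The groups did not overlap, by a log2 change of -1.25 (SE 0.32, adjusted p = 0.018), and the call was lost without Cort NPD replicate 3 (-1.23, adjusted p = 0.055) or the filter (-1.24, adjusted p = 0.069). The count does not separate the SREBP-1a and SREBP-1c transcripts. On the HPD the log2 fold change of Srebf1 was -0.68, from 34.0 CPM (SD 14.9, n = 3) to 21.2 CPM (SD 4.23, n = 4), and was not called.

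The acyltransferases that were called for Cort were higher under Cort on the diet of the call. Agpat3 (chromosome 10, 78269178 to 78352489, - strand), which acylates lysophosphatidic acid and other lysophospholipids, stood at 102, 103, 114 and 102 CPM in Veh NPD and 195, 197, 166 and 166 CPM in Cort NPD, and at 89.4, 105 and 101 CPM in Veh HPD and 165, 142, 147 and 142 CPM in Cort HPD. Cort libraries were above Veh libraries on both diets. It was higher by 0.78 on the log2 scale with the NPD (SE 0.13, adjusted p = 0.00024) and by 0.60 with the HPD (SE 0.14, adjusted p = 0.0074), where it did not pass when Veh HPD replicate 1 was left out (0.53, adjusted p = 0.059) or with library totals (0.36, adjusted p = 0.096). Agpat2 was higher on the HPD by 0.54 (adjusted p = 0.034), from 161 CPM (SD 9.37, n = 3) to 235 CPM (SD 10.98, n = 4), a call lost without any one of Cort HPD replicates 2, 3 and 4 and Veh HPD replicates 1, 2 and 3 (0.51 to 0.59, adjusted p 0.052 to 0.11), without the filter (adjusted p = 0.051), with the compared groups alone (adjusted p = 0.059) and with library totals (0.30, adjusted p = 0.24). On the NPD it had a log2 fold change of 0.22.

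Agpat1 (chromosome 17, 34604262 to 34613449, + strand), of the same family, was at only 3.48, 2.44, 4.24 and 2.87 CPM in Veh NPD and 7.54, 6.13, 5.83 and 7.11 CPM in Cort NPD, a log2 difference of 1.02 (SE 0.23, adjusted p = 0.0041) between groups that did not overlap. In Cort HPD it was at 3.22, 3.78, 4.51 and 2.82 CPM, below every Cort NPD library, a log2 change of -0.89 (SE 0.22, adjusted p = 0.020) for the diet. On the HPD the mean of Agpat1 was 4.46 CPM with Veh and 3.58 CPM with Cort, and the Cort effect was not called there. The diet call was lost without Cort HPD replicate 4 (-0.79, adjusted p = 0.059), Cort NPD replicate 1 (-0.83, adjusted p = 0.057) or Cort NPD replicate 4 (-0.85, adjusted p = 0.054). Gpat3, which starts glycerolipid synthesis, was near 1 CPM: 0.790 to 1.61 CPM in Veh NPD and 2.69 to 5.09 CPM in Cort NPD, with a log2 fold change of 1.57 (adjusted p = 0.014) that was lost without Veh NPD replicate 1 (1.38, adjusted p = 0.059), with limma voom (1.55, adjusted p = 0.054) and with all liver libraries (1.57, adjusted p = 0.064). On the HPD the mean of Gpat3 was 4.57 CPM with Veh (1.56 to 8.90 CPM) and 3.47 CPM with Cort, and was not called for Cort.

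Dgat2 was higher on the NPD by 0.49 (adjusted p = 0.031), from 304 CPM (SD 37.8, n = 4) to 429 CPM (SD 67.0, n = 4), without overlap. This was lost without Cort NPD replicates 1 or 2 or Veh NPD replicates 1, 2 or 3 (0.41 to 0.49, adjusted p 0.058 to 0.12) and with all liver libraries (0.50, adjusted p = 0.094). Acaca was higher by 1.39 (adjusted p = 0.033), at 24.0, 16.4, 24.0 and 29.9 CPM in Veh NPD and 38.7, 44.3, 49.0 and 114 CPM in Cort NPD. The groups did not overlap, and the value of 114 CPM belongs to Cort NPD replicate 4, without which the log2 fold change was 0.88 (adjusted p = 0.064). The Acaca call was also lost without Veh NPD replicates 1 (adjusted p = 0.079), 2 (adjusted p = 0.096) or 3 (adjusted p = 0.070), with library totals (adjusted p = 0.052) and without the filter (adjusted p = 0.073). Cort NPD replicate 4 was the highest of its group for 19 of 32 members with enough counts, with Fasn at 439 CPM against 110.4 to 137 CPM, and without it the uncalled log2 fold change of Fasn went from 0.996 to 0.25.

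The lipins convert phosphatidic acid to diacylglycerol, and Lpin2 was lower under Cort on the HPD. Lpin2 (chromosome 17, 71182560 to 71249817, + strand) stood at 124, 150.4 and 99.3 CPM in Veh HPD and 57.6, 82.1, 74.0 and 73.8 CPM in Cort HPD, without overlap, and at 75.2, 134, 115 and 109 CPM in Veh NPD and 117, 101, 99.5 and 103 CPM in Cort NPD, where the groups overlapped. It fell by 0.79 on the log2 scale on the HPD (SE 0.18, adjusted p = 0.0070), a call that ended when Veh HPD replicate 2 was left out (-0.62, adjusted p = 0.064), and the NPD value was -0.04. Lpin1 was at 125, 436 and 194 CPM in Veh HPD and 40.6, 73.5, 35.9 and 79.6 CPM in Cort HPD, and at 333, 152, 237 and 136 CPM in Cort NPD. Its Cort HPD libraries were below all Veh HPD and Cort NPD libraries that entered the fit, and the log2 fold change of -2.13 for Cort on the HPD missed the threshold (adjusted p = 0.058), while DESeq2 (adjusted p = 0.0085) and limma voom (adjusted p = 0.016) called it. The interaction for Lpin1 was -2.44 (adjusted p = 0.30).

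**Figure D3:**
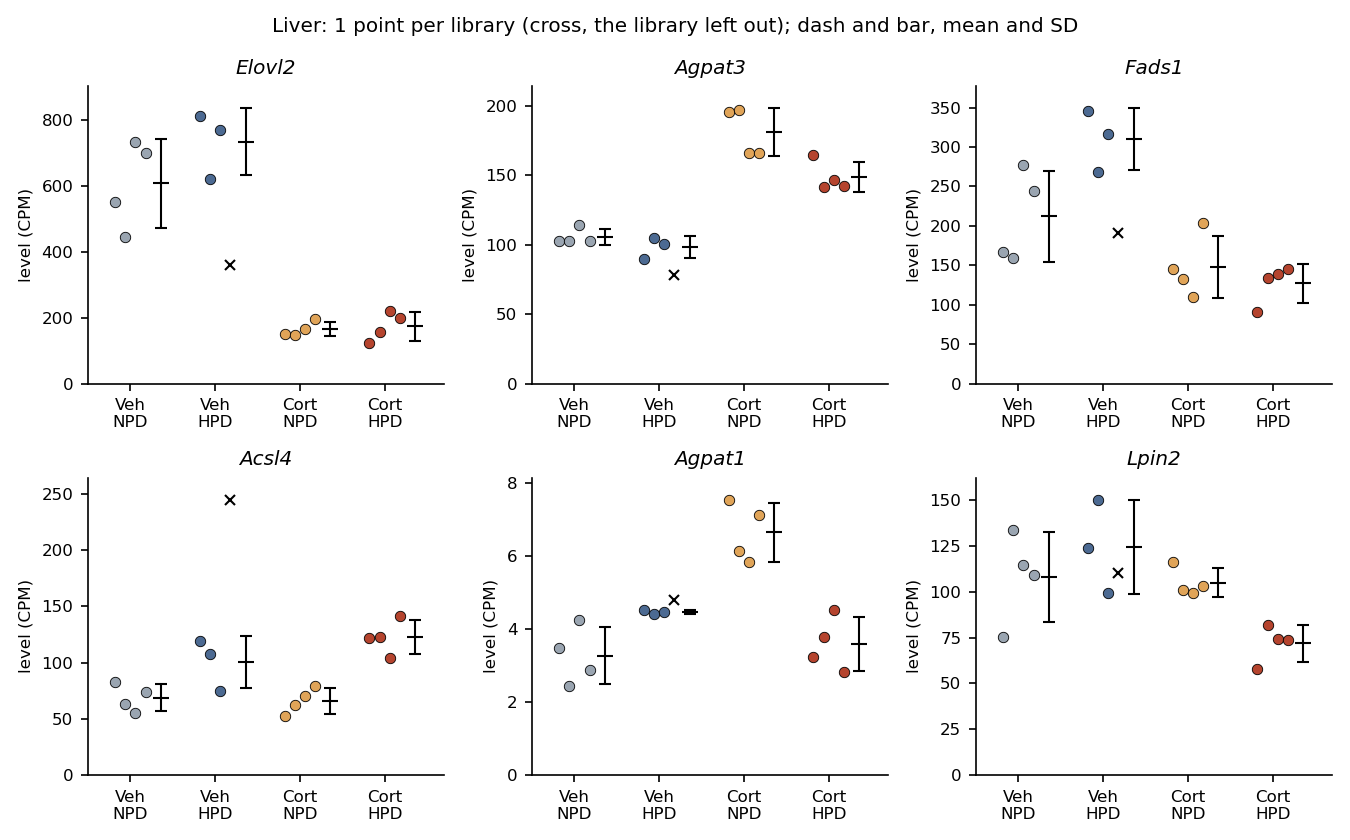
Levels in CPM of 6 members in the liver libraries (1 point per library, vertical axis from 0, dash and bar for the mean and SD, cross for Veh HPD replicate 4, which was left out of means and tests). Elovl2 lies between 122 and 221 CPM in all Cort libraries and at 445 CPM or more in the Veh libraries that entered the fit.

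For the HPD in liver with Veh, 0 of 33 members were called by edgeR, against 0.105% of all genes higher and 0.0646% lower. At an unadjusted p under 0.05 there were 4 members, against 1165 of all 12391 genes tested. DESeq2 called 1 member (Gpat3) and limma voom 0, and their calls over all genes are not given here. Of the members 84.8% had a positive sign, against 50.4% of all genes, and the median was 0.23 against 0.004. Veh HPD had 3 libraries. Markers of exocrine pancreas summed to 110 CPM in its replicate 1 and to 32.7 and 34.1 CPM in the others, and their part in the results was not tested. Replicate 1 stood above the others for several members. Acly was at 195 CPM in it against 57.2 and 98.4 CPM, Acss2 at 202 against 74.2 and 88.9 CPM, and Fasn at 196 against 70.8 and 116 CPM. Other members, such as Srebf1, were highest in replicate 3, and the share of positive signs without replicate 1 is not given here. With Cort, 1 member was higher and 1 lower, against 3.08% and 2.80% of all genes, and the median was -0.22 against -0.009. The lower gene was Agpat1, given above. The higher one was Acsl4 (chromosome X, 142317993 to 142390535, - strand), an acyl-CoA synthetase with a preference for arachidonate, at 52.5, 62.4, 70.0 and 79.1 CPM in Cort NPD and 121, 123, 104 and 141 CPM in Cort HPD. The groups were fully apart, at a log2 change of 0.89 (SE 0.17, adjusted p = 0.0031) that held in all 15 fits with 1 library left out. With Veh, Acsl4 was at 54.9 to 82.4 CPM on the NPD and 119.5, 107 and 74.4 CPM on the HPD, while the library left out stood at 245 CPM, and with that library in the fit the Cort call was lost (0.90, adjusted p = 0.063).

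The response to Cort differed between the tissues for 7 members in a fit of both tissues, 2 with a more positive and 5 with a more negative change in liver, where 3.88% of all 16482 tested genes did so in each direction. Whether the eWAT and liver libraries came from the same mice is not stated, and this fit treated them as independent. The members' median difference was -0.16 against -0.02 over all genes. Averaged over the diets, the difference was -1.07 (adjusted p = 0.021) for Srebf1, -1.12 (adjusted p = 0.0030) for Fads1 and -0.66 (adjusted p = 0.0072) for Elovl1, and 0.56 (adjusted p = 0.0015) for Agpat3 and 0.71 (adjusted p = 0.029) for Acsl5, another acyl-CoA synthetase. The other two, Elovl2 and Pnpla3, were at or near the counting floor of 3 counts per library in 1 tissue, so no fold is given. The call for Srebf1 was lost without liver Veh HPD replicate 3 (-0.86, adjusted p = 0.062), and that for Acsl5 without liver Cort NPD replicate 4 (0.60, adjusted p = 0.061), Veh HPD replicate 2 (0.65, adjusted p = 0.067) or Veh NPD replicate 1 (0.66, adjusted p = 0.050).

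The diet response under Cort differed between tissues for 4 members, 3 more positive in liver (0.382% of all genes) and 1 more negative (0.843%), with a members' median of 0.15 against -0.12 over all genes. For Acss2 the difference was 2.44 (adjusted p = 0.036) and for Slc25a1 1.35 (adjusted p = 0.041), both with a negative value in eWAT and a small positive one in liver (0.55 and 0.11). For Acsl4 it was 1.16 (adjusted p = 0.0077) and for Agpat1 -0.91 (adjusted p = 0.047). The Acsl4 call held in all 31 fits with 1 library left out and was lost with all liver libraries (1.23, adjusted p = 0.050). The others were lost in 10 fits for Acss2 (2.27 to 2.47, adjusted p 0.051 to 0.080), 9 for Slc25a1 (1.13 to 1.43, adjusted p 0.051 to 0.076) and 25 for Agpat1 (adjusted p 0.050 to 0.13). The Acss2 and Slc25a1 losses came from leaving out libraries of the Cort groups of either tissue, while those of Agpat1 came from libraries of all 8 groups.

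The share of all genes called in any comparison of a tissue is not given here, so the member counts below do not rank the tissues. With Cort on the NPD, 4.05% of all tested genes were called higher and 3.93% lower in eWAT, against 6.84% and 5.79% in liver. For the HPD with Cort these shares were 0.204% and 0.283% in eWAT, against 3.08% and 2.80% in liver. Across all comparisons within a tissue, 9 members were called in eWAT, 13 in liver and 3 of these in both, Agpat2, Dgat2 and Elovl5. The remaining 14 were not called in any of them. Among these, Acsl3, Acsl5, Dgat1 and Gpat4 had log2 fold changes between -0.47 and 0.52 in the 4 comparisons of each tissue, while the other members reached further from 0 in at least 1 comparison without being called. Dgat1, the other diacylglycerol acyltransferase, stayed between 185 and 238 CPM in the group means of eWAT with log2 fold changes of 0.11 to 0.25, against the called changes of Dgat2. Gpat4, the microsomal glycerol-phosphate acyltransferase, had group means of 104 to 151 CPM in eWAT and 109 to 141 CPM in liver, and Acsl3, on lipid droplets, of 12.6 to 18.0 CPM and 15.01 to 18.4 CPM. Group means of Gpam, the mitochondrial glycerol-phosphate acyltransferase, were 4.87 to 6.97 CPM in eWAT and 1.82 to 3.40 CPM in liver, and those of Lpin3 were 4.27 to 7.39 CPM and 1.63 to 2.13 CPM. Mogat1, a monoacylglycerol acyltransferase, had means of 22.0 to 36.2 CPM in eWAT and 0.471 to 2.02 CPM in liver. Acacb, the carboxylase on mitochondria, had a log2 fold change of 0.80 (adjusted p = 0.061) for Cort on the NPD in eWAT, called by DESeq2 (adjusted p = 0.0061) and limma voom (adjusted p = 0.013).

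**Figure D4:**
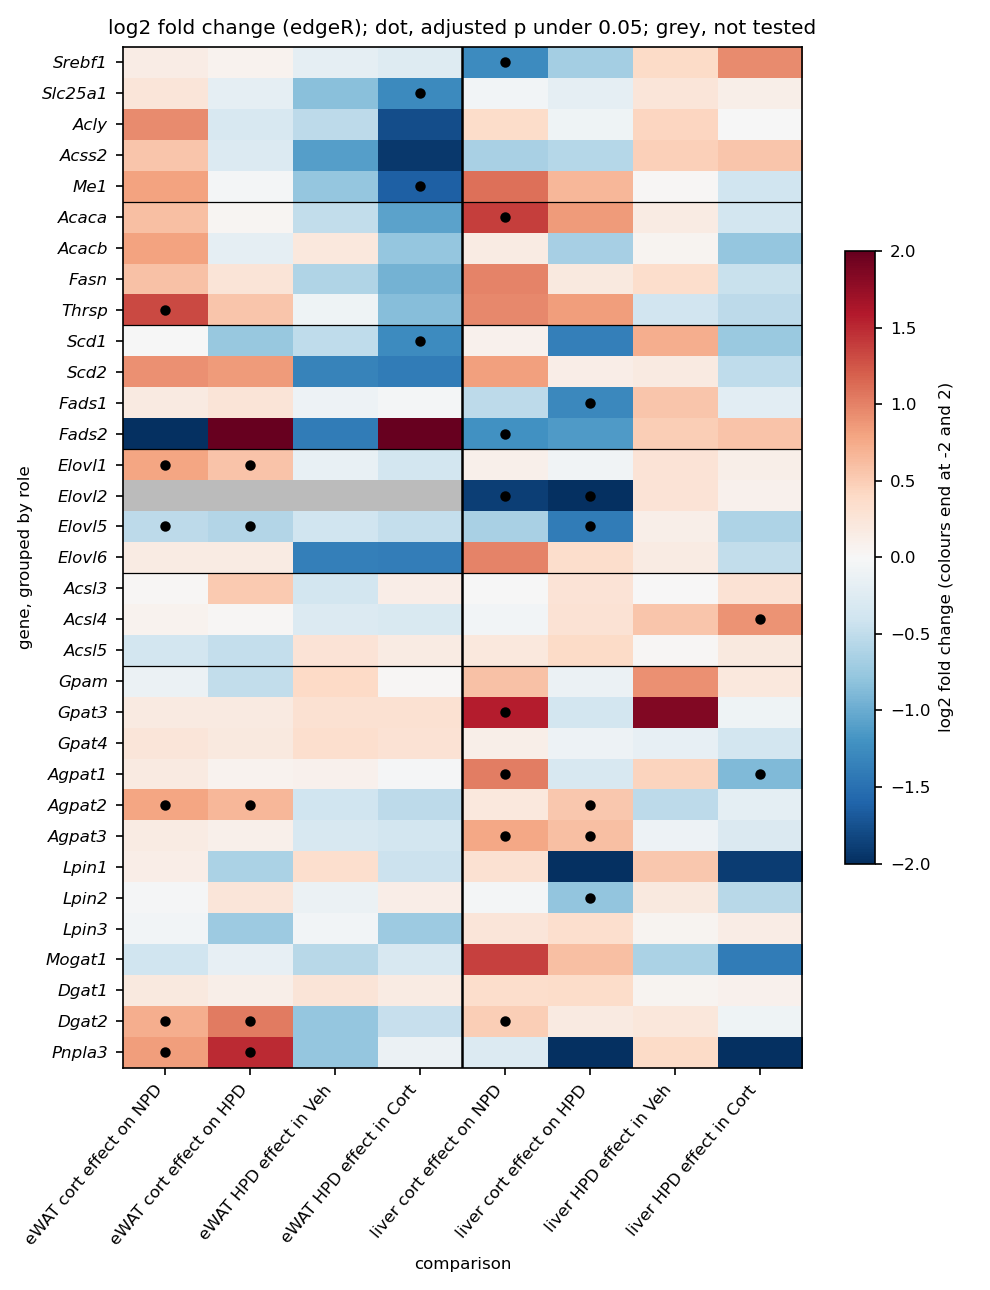
Log2 fold changes of the 33 genes (rows, grouped by role) in the 4 comparisons of eWAT and the 4 of liver (columns), from blue (lower) to red (higher), with a dot where the adjusted p was under 0.05 and grey for Elovl2 in eWAT, which was not tested. The strong colours of Fads2 in eWAT and Pnpla3 in liver rest on levels of at most 1.995 and 1.34 CPM, while the dots for Elovl1, Agpat2, Dgat2 and Pnpla3 fall on both Cort columns of eWAT.

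Of 26 further enzymes of the pathway and its NADPH supply, 20 were tested in eWAT, where 6 were called higher for Cort with the NPD (4.05% of all genes) and 7 with the HPD (3.46%), and 0 were called lower on either diet (3.93% and 2.63%). Mid1ip1, a partner of Thrsp at acetyl-CoA carboxylase, had log2 fold changes of 1.14 (adjusted p = 2.0e-04) and 1.68, and the NADPH producers G6pdx and Pgd had 1.02 and 1.12 on the NPD and 1.15 and 0.82 on the HPD. In liver, Elovl3 had log2 fold changes of -2.94 (adjusted p = 0.0042) and -2.64 (adjusted p = 0.012), G6pdx of -2.20 on the HPD (adjusted p = 0.022) and Aacs, which activates acetoacetate, of -1.55 on the HPD (adjusted p = 0.031). Of the 21 tested there, 1 was called lower on the NPD (5.79% of all genes) and 3 on the HPD (5.14%), and 0 were called higher (6.84% and 4.75%). Under the HPD with Cort, Tecr, the last enzyme of chain elongation, fell by 0.65 in eWAT (adjusted p = 0.017). The liver minus eWAT difference of the Cort effect was called for 5 of 22 tested enzymes, all more negative in liver (3.88% of all genes), G6pdx by -2.52 and Mid1ip1 by -1.06 among them.

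Of 14 regulators, Mlxipl, which encodes the carbohydrate-sensing factor ChREBP, rose in eWAT by 1.09 (adjusted p = 0.00017) and 0.91 (adjusted p = 0.0015) and Cebpa, a driver of adipocyte genes, by 0.55 (adjusted p = 0.013) and 0.52 (adjusted p = 0.023), on the NPD and HPD in turn. In liver, Insig1, which holds SREBP in the endoplasmic reticulum, fell by 0.95 (adjusted p = 0.019) and 1.01 (adjusted p = 0.023) and Xbp1 by 0.82 (adjusted p = 0.0073) and 1.03 (adjusted p = 0.0026), while Insig2, its homologue, rose by 1.06 on the HPD (adjusted p = 0.0099). For Mlxipl the liver minus eWAT difference of the Cort effect was -1.32 (adjusted p = 0.00031), and for Insig2 it was 1.11 (adjusted p = 0.00051). Fkbp5, a classical glucocorticoid target used as a check of the treatment, was higher under Cort on the NPD by 1.74 in eWAT (adjusted p = 0.016) and 2.23 in liver (adjusted p = 0.0094) and was not called on the HPD. Of the 8 target genes checked, 2 were higher in eWAT on the NPD (the other was the metallothionein gene Mt2) and 1 in liver, while on the HPD 1 was higher and 2 lower in eWAT and 3 were lower in liver, Zbtb16 among the lower in both tissues.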

How the data were processed

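The authors deposited 1 table of raw counts per Ensembl gene, with 1 column per library, and all 32 columns were used (0 were left unused). The submitters' processing notes name GRCm38 and mm10, limma and R 4.0.3. The aligner, the counter, the annotation and its strand setting are not given in the sources used here. The study's methods name libraries read next to the poly(A) tail.

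Of the 47643 gene IDs, 47224 received a symbol from GENCODE M21 (GRCm38), which also gave the positions, and 419 did not. Counts were fitted with edgeR 4.0.16 in R 4.3.3 (filterByExpr with a minimum count of 10 and a minimum total of 15, TMM factors, robust quasi-likelihood fit with 1 mean per group), in 16 eWAT libraries, in 15 liver libraries without the library that the study marked as removed, and in these 31 together for differences between tissues. P-values were adjusted by Benjamini-Hochberg over all genes tested, and no replicate pair of the 48 held identical values. Alternatives were DESeq2 1.42.0, limma voom (limma 3.58.1), RLE factors, library totals, no filter, the compared groups alone, all liver libraries, the replicate number as a block, and each library left out in turn.

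The members and gene lists were chosen with earlier results of these data known. Values in every library were given for the 6 members per tissue with the smallest p, the other called members were named with their fold change, and further lists by up to 3 called genes per direction and tissue. Members outside this rule that are given by library, such as Thrsp, Acss2, Srebf1 and Lpin1, were chosen after their values were seen. On simulated counts with 200 genes changed by 2 on the log2 scale, edgeR recovered 100% of them for Cort on the NPD in eWAT (14791 genes, 3.85% of calls false) and in liver (12168 genes, 4.31% false), and 79% for the difference of the HPD effect in Cort between tissues (15095 genes, 5.95% false). In the same eWAT and liver counts, 8.26% and 10.71% of the DESeq2 calls were false, and 3.88% and 5.66% of the limma voom calls. Calls made by DESeq2 alone were therefore less strict there than those of edgeR. Recovery of smaller changes was not tested, and the called member changes within eWAT were all smaller, from -1.63 (Me1) to 1.49 (Pnpla3). The spread between libraries that was set for the simulated counts is not given here. Figures were drawn with matplotlib 3.10.9. Promoters came from a RefSeq table on GRCm38.p6.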

Additional observations from a re-analysis of the deposited data

Results flagged for a closer look

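In 15 of 228 sets of 4 libraries, 1 library lay outside the range allowed by Dixon's test at the 95% level, and chance flags about 1 in 20 such sets. In liver Cort NPD, replicate 4 was high for Acly (236 CPM against 53.3 to 80.0 CPM), Acaca (114 CPM against 38.7 to 49.0 CPM) and Fasn (439 CPM against 110.4 to 137 CPM). In liver Veh NPD, Thrsp was at 622 CPM in replicate 4 (177 to 248 CPM in the others) and Agpat3 at 114 CPM in replicate 3 (102 to 103 CPM). In liver Cort HPD, Elovl1 was at 20.4 CPM in replicate 1 (30.4 to 32.4 CPM) and Acsl3 at 16.5 CPM in replicate 2 (18.9 to 19.2 CPM).

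In eWAT Veh HPD, replicate 4 was high for Fads1 (68.8 CPM against 32.5 to 37.6 CPM), Gpat3 (101 CPM against 49.8 to 57.5 CPM) and Elovl2 (0.389 CPM against 0), and replicate 2 for Fads2 (0.731 CPM against 0). In eWAT Cort HPD, replicate 4, which held the epididymal markers, was high for Elovl2 (2.06 CPM against 0 to 0.105 CPM) and Elovl6 (86.4 CPM against 18.7 to 29.8 CPM). In eWAT Cort NPD, Gpam was at 6.25 CPM in replicate 1 (4.36 to 4.50 CPM) and Pnpla3 at 216 CPM in replicate 4 (169 to 173 CPM).

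By edgeR's test of the difference itself, liver minus eWAT, 7 members were called for Cort and 4 for the HPD under Cort. The 9 given here, on the log2 scale, leave out Elovl2 and Pnpla3, which were at or near the counting floor in 1 tissue. For Cort over both diets these were Agpat3 (0.56), Elovl1 (-0.66), Fads1 (-1.12), Srebf1 (-1.07) and Acsl5 (0.71). For the HPD under Cort they were Slc25a1 (1.35), Acss2 (2.44), Acsl4 (1.16) and Agpat1 (-0.91).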

How the results depend on the processing

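Counts are members called, and counts over all genes under the alternatives are not given here. In eWAT, the HPD with Cort gave 3, and 6 with DESeq2, 7 with limma voom, 8 with the compared groups alone, 1 without the filter and 0 to 5 with 1 library left out. The HPD with Veh gave 0, and 3 with DESeq2, 1 with limma voom and 0 to 1 with 1 library left out. Cort on the HPD gave 5, and 3 with the compared groups alone and 2 to 7 with 1 library left out, and Cort on the NPD gave 6, and 9 with limma voom, 9 with the compared groups alone, 4 with library totals and 3 to 7 with 1 library left out. In liver, the HPD with Cort gave 2, and 1 with all liver libraries, 5 with DESeq2, 4 with library totals, 5 with the compared groups alone and 1 to 3 with 1 library left out. The HPD with Veh gave 0, and 1 with DESeq2, 1 without the filter and 0 to 1 with 1 library left out. Cort on the NPD gave 8, and 5 without the filter and 5 to 9 with 1 library left out, and Cort on the HPD gave 6, and 9 with limma voom, 4 without the filter and 3 to 7 with 1 library left out. The liver interaction gave 0, and 1 with DESeq2 and 0 to 1 with 1 library left out. The tissue difference of the HPD effect in Cort gave 4, and 1 with all liver libraries, 1 without the filter and 1 to 4 with 1 library left out. The cause of these moves was not tested. The eWAT interaction stayed at 0, the tissue difference of the Cort effect stayed between 6 and 9 under the alternatives run, and no call changed sign.

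Library totals in place of TMM factors moved the median of all genes from -0.004 to -0.24 for Cort on the HPD in liver, from -0.009 to -0.18 for the HPD with Cort in liver and from -0.002 to -0.22 for the liver interaction. Same-numbered libraries deviated together over 0.1 in 1 of 24 pairs in eWAT and 3 of 21 in liver, so the numbers were not taken to pair the mice. With the replicate block, eWAT gave 8 calls for Cort on the NPD, 5 for Cort on the HPD, 0 and 4 for the HPD with Veh and Cort, and liver 9, 8, 0 and 3. Members near 1 CPM, such as Gpat3, Mogat1 and Scd2 in liver, rest on few counts.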
